A study of Mus musculus with 4 samples.

Results

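The miRNAs described here are miR-143 and miR-145a, whose hairpins sit side by side in 1 locus and which are used as markers of vascular smooth muscle cells and pericytes. The members were taken by name as the mature arms mmu-miR-143-3p, mmu-miR-143-5p, mmu-miR-145a-5p and mmu-miR-145a-3p, which are 4 of the 1029 miRNA names in the table, and all 4 passed the filter of a mean of at least 10 CPM (a library's reads scaled to a common total) that left 456 names for testing. Under these names the table holds 371 of its 85704 small RNA sequences. The data are RISC-bound small RNAs (R-sRNAs), pulled down together with the Argonaute proteins by a GW182-derived peptide and sequenced (Ago-RP-Seq). The tissue was cortex and hippocampus of the brain, combined, of wild-type male C57BL/6J (BL6) mice that were either 2 months or 18 months old, with 2 libraries per age. No group carried a transgene or received a treatment, so age was the only difference between the groups that the labels give. The labels do not say how many animals went into a library, so p-values measure the spread between these libraries only. Since whole tissue was lysed, fewer cells of a type and less of an RNA per cell cannot be told apart.

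Both hairpins are processed from the long noncoding RNA Carmn (the cardiac mesoderm enhancer-associated noncoding RNA). Its transcription in smooth muscle depends on serum response factor and its coactivator myocardin, and the miRNAs are known for holding vascular smooth muscle in its contractile state. Each hairpin yields a duplex of a 5p and a 3p arm, of which 1 arm, the guide, is kept by Argonaute while the passenger arm is mostly discarded. The guides here are the 3p arm of miR-143 and the 5p arm of miR-145a. The 6mer seed, positions 2 to 7 of a small RNA, selects its targets, so a start that is shifted by 1 nucleotide makes a different seed, whereas nucleotides added or lost at the 3′ end leave the seed as it is.

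In the mouse genome (GRCm38, GENCODE M21) both hairpins lie on the minus strand of chromosome 18, Mir143 at 61649196 to 61649258 and Mir145a at 61647825 to 61647894, with 1301 bases between them. The GENCODE model of Carmn, a lincRNA, runs from 61649625 to 61665537 and ends 366 bases short of Mir143, and the RefSeq model, from 61645878 to 61665538, spans both hairpins. The most abundant reads that match the hairpin throughout place miR-143-3p at 61649199 to 61649219, miR-143-5p at 61649233 to 61649253, miR-145a-5p at 61647866 to 61647888 and miR-145a-3p at 61647828 to 61647848.

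The 4 arms together made up 0.646% and 0.662% of all R-sRNA reads at 2 months and 0.510% and 0.498% at 18 months. The 95% Wilson intervals of these shares, which cover counting error only, were at most 0.01 points wide, and both 18-month libraries lay below both 2-month libraries. Nearly all of these reads came from the guide arms, both of which were lower in the older mice without passing the test. The passenger arms did not share this direction, and the part of each hairpin's reads that came from its passenger arm was higher in both 18-month libraries.

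miR-143-3p, the guide of miR-143, was the most abundant member and ranked 57 of 1029 names. It was present at 3767 and 3739 CPM in the younger mice (2 months) and at 2565 and 3051 CPM in the older mice (18 months). The ages did not overlap, and the 18-month libraries differed more from each other (2808 ± 343 CPM, SD, n = 2) than the 2-month libraries did (3753 ± 20.1 CPM, SD, n = 2). The log2 difference of 18 against 2 months was -0.42 with a standard error of 0.21 and a 95% interval from -0.93 to 0.08, which did not pass the test (limma, Benjamini-Hochberg adjusted p = 0.361). Over all 456 names the median log2 difference was -0.22, so that miR-143-3p lay 0.20 below the typical miRNA.

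miR-145a-5p, the guide of miR-145a, ranked 69 of 1029 names. It measured 2648 and 2821 CPM at 2 months, compared with 2468 and 1865 CPM at 18 months. The ages did not overlap here either, but the 18-month libraries lay further apart (2166 ± 427 CPM, SD, n = 2) than the means of the ages. Without replicate 1 of the 18-month group the log2 difference was -0.55, and without replicate 2 it was -0.15. With all libraries the log2 difference was -0.35 with a standard error of 0.23 and a 95% interval from -0.90 to 0.20 (limma, adjusted p = 0.442), or 0.13 below the median of all names. Within every library miR-143-3p was the more abundant of the guides, with log2 ratios to miR-145a-5p of 0.51 and 0.41 at 2 months and 0.06 and 0.71 at 18 months. The ratio did not separate the ages (exact permutation test, two-sided, p = 1), and in the 18-month group replicate 1 had the lower miR-143-3p and replicate 2 the lower miR-145a-5p. An exact test of 2 against 2 libraries cannot go below p = 0.33.

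The passenger arms were far less abundant. miR-145a-3p, at rank 358, measured 34.3 and 38.2 CPM at 2 months, compared with 37.3 and 38.8 CPM at 18 months. These values overlap, and the log2 difference of 0.07 (standard error 0.23, 95% interval from -0.49 to 0.63) did not pass the test (limma, adjusted p = 0.905). miR-143-5p, at rank 400, was the least abundant member with 15.1 and 22.4 CPM at 2 months, compared with 27.4 and 26.6 CPM at 18 months. Both older libraries were above both younger libraries, while the younger libraries differed from each other by more than the nearest libraries of the 2 ages did. Its log2 difference was 0.53 with a standard error of 0.29 and a 95% interval from -0.17 to 1.24 (limma, adjusted p = 0.402). The value depended on the younger libraries, as it was 0.26 without replicate 1 and 0.80 without replicate 2 of the 2-month group. In order of level, the neighbours miR-143-3p and miR-145a-5p overlapped across libraries, whereas miR-145a-5p and miR-145a-3p, and miR-145a-3p and miR-143-5p, did not.

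**Figure D1:**
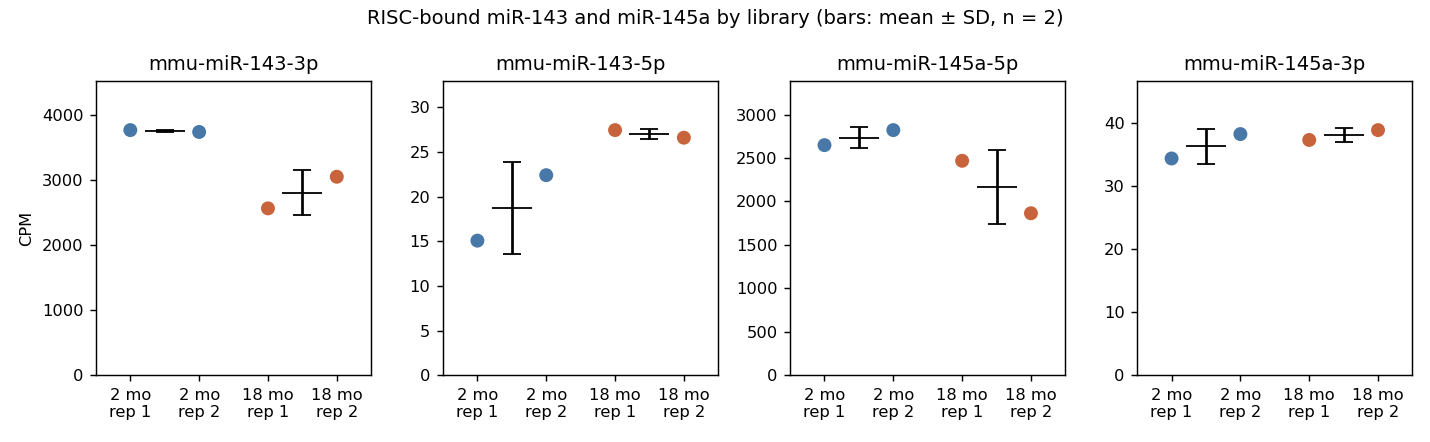
The CPM of the 4 members in each library (points, blue at 2 months and red at 18 months) with the mean and SD of each age (bars, n = 2). The guide arms miR-143-3p and miR-145a-5p are lower in both 18-month libraries, miR-143-5p is higher in both, and miR-145a-3p overlaps between the ages.

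Thus 0 of 4 members passed an unadjusted p of 0.05, against 16.2% of all names tested (74 of 456). For both guides the older libraries lay below the younger ones without overlap, as did 41.4% of all names. miR-143-5p was higher in both, which 12.1% of names were. How the libraries are scaled bears on these values. On CPM, 19 names passed upwards and 55 downwards, and after rescaling by the median of ratios the split was 39 upwards and 25 downwards with a median log2 difference of -0.01. On the rescaled values miR-143-3p was still lower in both older libraries (3433 and 3507 against 2797 and 3208 rescaled CPM), while miR-145a-5p overlapped (2414 and 2646 against 2691 and 1961), and their log2 differences were -0.21 and -0.14. The passenger arm miR-143-5p then measured 13.7 and 21 against 29.9 and 27.95 rescaled CPM, a log2 difference of 0.73 that passed at an unadjusted p of 0.05 but not after adjustment (limma, adjusted p = 0.340). miR-145a-3p no longer overlapped on that scale, with 31.3 and 35.8 against 40.6 and 40.8 rescaled CPM, and its difference of 0.28 did not pass. The shares of 41.4% and 12.1% above are on CPM. How many of all names do not overlap on the rescaled values was not counted, so no weight can be put on the separation there.

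The use of the arms does not depend on the scaling, since both arms are read in the same library. Of the reads of the miR-143 hairpin, the 5p arm gave 0.398% and 0.595% at 2 months and 1.06% and 0.864% at 18 months. These shares rest on 158 of 39654 and 255 of 42833 reads in the younger and on 290 of 27415 and 241 of 27901 reads in the older libraries. Their 95% Wilson intervals, 0.341% to 0.465% and 0.527% to 0.673% against 0.943% to 1.19% and 0.762% to 0.979%, did not overlap between the ages. These intervals cover counting error only, and those of the 2-month libraries did not overlap each other either. The mean difference was 0.464 percentage points (exact permutation test, two-sided, p = 0.33, the smallest the design allows). By the log2 ratio of the shares, 0.95, miR-143 ranked 3 of the 142 hairpins with both arms tested.

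The 3p arm of the miR-145a hairpin gave 1.28% and 1.34% of its reads at 2 months and 1.49% and 2.04% at 18 months. The older libraries were higher here as well, although the Wilson interval of replicate 1 at 18 months (1.35% to 1.64%) overlapped with those of the younger libraries (1.16% to 1.42% and 1.22% to 1.47%). The mean difference was 0.455 points (exact permutation test, p = 0.33) and the log2 ratio of the shares 0.43, rank 23 of 142. Without replicate 2 of the 18-month group the difference was 0.179 points. A minor arm that was higher in both 18-month libraries occurred in 18.3% of these hairpins, and in the same number of hairpins it was lower in both.

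**Figure D2:**
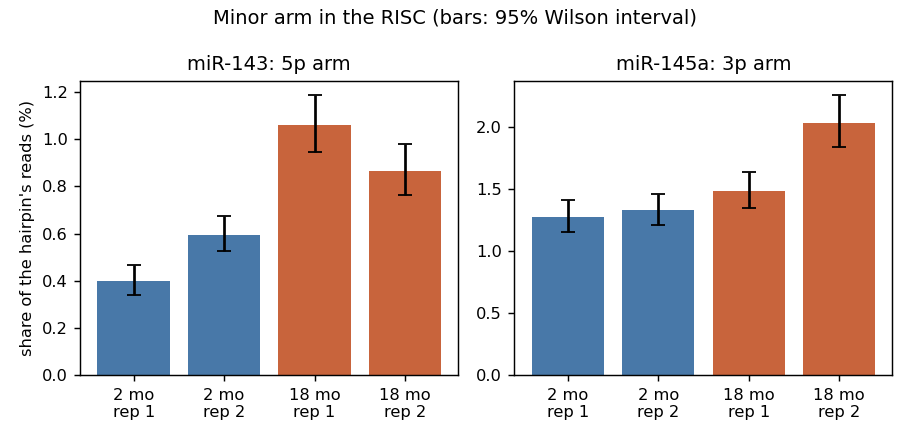
The share of reads (%) that came from the passenger arm, the 5p arm of miR-143 and the 3p arm of miR-145a, in each library, with 95% Wilson intervals for counting error. For miR-143 the shares are 0.398% and 0.595% at 2 months against 1.06% and 0.864% at 18 months, and for miR-145a 1.28% and 1.34% against 1.49% and 2.04%.

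The 371 sequences of the 4 names are isoforms (isomiRs) that differ mainly at the 3′ end. miR-143-3p came in 162 sequences, miR-145a-5p in 163, miR-143-5p in 26 and miR-145a-3p in 20. Each sequence was set against its hairpin and called templated where it matched throughout, tailed where up to 4 nucleotides at its 3′ end did not belong to the hairpin, or mismatched inside. Mismatches made up under 1% of the reads named as either guide in every library. With the mismatched reads that match a hairpin but carry no mature name, they came to 1.76% to 1.98% of the reads of the miR-143 hairpin and 1.32% to 1.62% of those of the miR-145a hairpin.

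miR-143-3p was a heavily tailed miRNA. A 3′ tail that is not in the hairpin was present on 48.7% and 48.3% of its reads at 2 months and on 49.8% and 48.8% at 18 months. This put it at rank 12 of the 366 names for which a hairpin was at hand, whose median was 10.3%. The tail was nearly always a single U, the product of terminal uridylyl transferases, which was found on 42.1% and 42.1% of reads at 2 months and 43.2% and 42.2% at 18 months, rank 5 of 366 against a median of 3.18%. The tail UU followed with 3.12% to 3.54% of the reads and a single A with 0.993% to 1.56%.

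The most abundant miR-143-3p in the RISC was accordingly not a copy of its hairpin. It consisted of 21 templated nucleotides and 1 added U, and it was present at 1524 and 1504 CPM at 2 months, compared with 1055 and 1222 CPM at 18 months. The templated 21-nucleotide form came next with 1219 and 1186 CPM against 736 and 871 CPM. Both forms were lower in both older libraries, the untailed form more so, with a log2 difference of -0.59 that did not pass the test (limma over all sequences, adjusted p = 0.496). The templated 20-nucleotide form overlapped between the ages (383, 449, 311 and 401 CPM in the same order), and the templated 22-nucleotide form did not (232, 237, 175 and 223 CPM).

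The single U sat on 1 length of miR-143-3p. Of the reads whose templated part was 21 nucleotides long, 52.9% and 53.0% carried it at 2 months and 55.8% and 55.4% at 18 months. Of those with 20 templated nucleotides it was 5.95% and 6.54% against 6.16% and 7.49%, and of those with 22 it was 5.69% and 9.07% against 7.34% and 6.05%. The 20- and 22-nucleotide forms overlapped between the ages. On the 21-nucleotide form the share was 2.68 points higher at 18 months (52.9% ± 0.114 against 55.6% ± 0.282, SD, n = 2). The Wilson intervals, for counting error only, were 52.3% to 53.6% against 54.7% to 56.5% over both libraries. The exact permutation test again gave p = 0.33. Over all lengths, the share with a single U was higher in both older libraries for 13.7% of the 366 names and lower in both for 17.8%. A share on 1 length was not compared over all names.

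**Figure D3:**
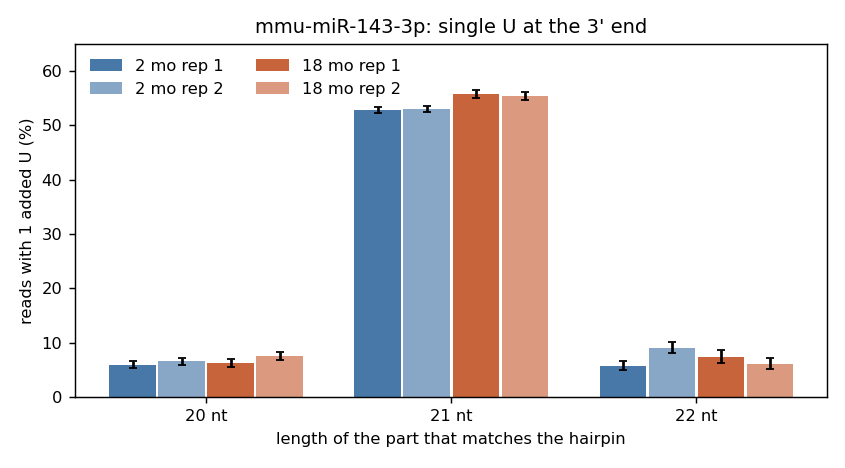
The share of miR-143-3p reads (%) with a single added U at the 3′ end, by the length in nucleotides of the part that matches the hairpin, for the 4 libraries, with 95% Wilson intervals. The tail is on 52.9% to 55.8% of reads with 21 matching nucleotides and on less than 10% of those with 20 or 22.

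Among tails that can be told from the hairpin, the other members carried fewer such tails or other ones. Such tails were present on 6.72% to 7.33% of miR-145a-5p reads, rank 229 of 366. They were led by a single A (3.31% to 3.77%), the mark of poly(A) polymerases. An added nucleotide that equals the next one of the hairpin is counted as templated. The templated 24-nucleotide miR-145a-5p (117.7 and 108.6 CPM at 2 months, 69.12 and 75.55 CPM at 18 months) may therefore include tailed reads. Which tail leads on all miR-145a-5p reads thus cannot be told. miR-143-5p had tails on 36.7% and 26.7% of its reads at 2 months, compared with 25.5% and 24.5% at 18 months, and miR-145a-3p on 12.9% to 17.0%. A single A was on 19.0% and 14.5% of miR-143-5p reads at 2 months, compared with 13.5% and 4.98% at 18 months, and it was the leading tail in all libraries but replicate 2 at 18 months, where AU was on 5.40%. For both guides the tailed share was above that of both 2-month libraries in both 18-month libraries, which held for 22.1% of names, and the differences were 0.791 points for miR-143-3p and 0.477 points for miR-145a-5p.

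In contrast, miR-145a-5p varied mainly in length. Templated reads made up 92.2% to 92.6% in all libraries, spread over lengths from 19 to 24 nucleotides. The 23-nucleotide reads were the most frequent with 36.0% and 33.7% at 2 months and 40.2% and 39.7% at 18 months. The 22-nucleotide reads accounted for 24.7% and 26.01% at 2 months but 19.8% and 13.1% at 18 months, and the 19-nucleotide reads for 6.92% and 6.61% against 8.61% and 14.3%. Shares of 22 nucleotides were thus lower, and those of 19 and 23 nucleotides higher, in both older libraries. Most other lengths also separated the ages, with 18 and 20 nucleotides higher and 21 and 25 nucleotides lower, while 24 nucleotides overlapped. How often a single length separates the ages was not counted over all names. For 19 and 22 nucleotides replicate 2 of the 18-month group stood furthest out.

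Reads of miR-145a-5p shorter than 20 nucleotides made up 7.15% and 6.81% at 2 months and 8.99% and 14.98% at 18 months (exact permutation test, p = 0.33). The Wilson intervals did not overlap between the ages (at most 7.46% at 2 months, at least 8.64% at 18 months). They cover counting error only, and those of the 18-month libraries (8.64% to 9.34% and 14.45% to 15.52%) did not overlap each other either. Per the labels, RNA was cut from a gel from 19 nucleotides upwards, so that these reads lie at the lower edge of the selected sizes. A higher share of short reads in both older libraries was seen for 23.9% of the 456 names, and miR-145a-5p ranked 26 of 456 by the share itself. Over all named miRNA reads the share below 20 nucleotides was 4.004% and 3.94% at 2 months and 3.98% and 3.45% at 18 months, so that replicate 2 of the 18-month group, which had the most short miR-145a-5p, had the fewest short reads of all miRNAs together. The mean length of miR-145a-5p was 21.93 and 21.90 nucleotides at 2 months and 21.87 and 21.70 at 18 months, and a mean length lower in both older libraries occurred in 34.4% of names. The lengths of miR-143-3p also separated the ages at 20, 21 and 22 nucleotides. Its 21-nucleotide share was 34.9% and 34.1% at 2 months and 31.5% and 31.6% at 18 months. The 20-nucleotide share was 10.7% and 12.4% against 12.6% and 13.8%, and the 22-nucleotide share 48.4% and 47.9% against 49.55% and 48.85%. The difference at 21 nucleotides was -2.94 points, compared with -8.95 points at 22 nucleotides for miR-145a-5p.

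**Figure D4:**
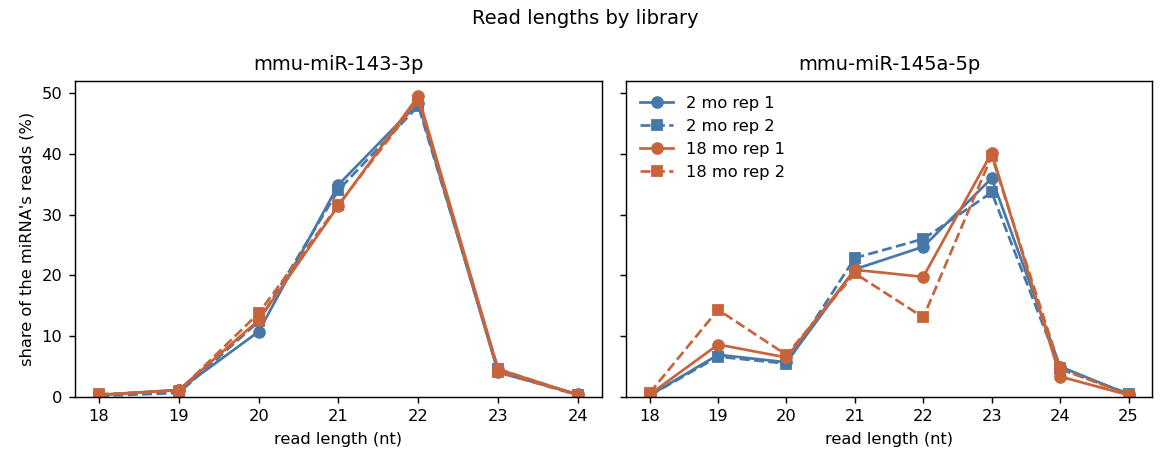
The share of reads (%) by read length in nucleotides for miR-143-3p and miR-145a-5p in the 4 libraries (blue, 2 months, and red, 18 months). For miR-143-3p the curves lie close together, with the 18-month libraries lower at 21 nucleotides and higher at 20 and 22 nucleotides. For miR-145a-5p the 18-month libraries are lower at 22 nucleotides (19.8% and 13.1% against 24.7% and 26.01%) and higher at 19 nucleotides.

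Of the 371 member sequences, 91 passed a filter of a mean of at least 1 CPM. Of these, 4 (4.40%) passed an unadjusted p of 0.05 between the ages, compared with 10.1% of all 14287 sequences tested, and 0 passed the adjusted test (limma). The templated 22-nucleotide miR-145a-5p fell by 1.06 on the log2 scale (615.6 and 686.8 CPM against 445.1 and 217.8 CPM, standard error 0.36, limma, adjusted p = 0.392). A templated 18-nucleotide miR-145a-5p rose from 2.38 and 2.72 CPM to 6.62 and 8.93 CPM, a log2 difference of 1.29 (limma, adjusted p = 0.281). The other two were a 25-nucleotide miR-145a-5p with an added U (6.39 and 10.3 CPM against 3.59 and 3.20 CPM, log2 difference -1.06) and a 22-nucleotide miR-143-3p with an added UU (15.1 and 15.6 CPM against 7.75 and 8.27 CPM, log2 difference -0.86). Over the 91 sequences 39 were higher and 52 lower with a median log2 difference of -0.07, and over all sequences the median was -0.01.

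The 5′ end, which sets the seed, was nearly fixed in both guides. Reads of miR-143-3p that began at another position than the main one made up 1.58% and 0.979% at 2 months and 1.85% and 1.28% at 18 months, which overlap (exact permutation test, p = 0.667). For miR-145a-5p they were 1.17% and 1.24% against 1.57% and 1.28% (exact permutation test, p = 0.33), a difference of 0.219 points that was 0.0770 without replicate 1 and 0.361 without replicate 2 of the 18-month group. The guides also had their seeds to themselves, since 98.9% of all CPM with the main seed of miR-143-3p and 98.7% of that with the main seed of miR-145a-5p were assigned to these names.

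The passenger arm miR-145a-3p behaved differently and entered the RISC with 3 different starts. The main start accounted for 54.4% and 54.0% of its reads at 2 months and 58.4% and 55.4% at 18 months, the start 1 nucleotide upstream for 26.4% and 26.7% against 21.8% and 24.2%, and the start 2 nucleotides upstream for 19.2% and 19.3% against 19.8% and 20.5%. By the share of reads with a seed other than the main one it ranked 24 of 456 names, whose median was 3.70%. That share was lower in both older libraries (45.6% and 46.0% against 41.6% and 44.6%), as for 19.1% of all names. For miR-143-5p and miR-145a-5p the share was higher in both, as for 15.6% of all names. The seed of the start 1 nucleotide upstream was also found in miR-384-3p (13.6 CPM on average), and of the 28.1 CPM of all sequences with this seed 9.19 CPM, or 32.7%, belonged to miR-145a-3p.

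The study scores each seed by 6mer seed viability, the mean viability of 3 mouse cell lines in percent of the control after transfection of a small RNA with this seed, so that a low score stands for a toxic seed. The main seeds scored 49.6 for miR-145a-5p, 56.2 for miR-143-3p, 64.0 for miR-143-5p and 67.0 for miR-145a-3p. The starts of miR-145a-3p fell apart in this score, with 63.6 for the start 1 nucleotide upstream and 28.1 for the start 2 nucleotides upstream, which was present at 7.32 CPM on average. Weighted by CPM, the reads of all 4 members averaged 53.5 and 53.4 at 2 months and 53.1 and 53.8 at 18 months, which overlap (exact permutation test, p = 1). All R-sRNA reads averaged 57.7 and 57.9 against 58.1 and 58.4.

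Other miRNAs of the vessel wall, the blood and the brain were set beside the members to show what else was in the tissue. The endothelial miR-126a-3p measured 9242 and 8854 CPM at 2 months, compared with 2557 and 6489 CPM at 18 months, a log2 difference of -1.15 that passed the unadjusted test only (limma, adjusted p = 0.266), and replicate 1 at 18 months had the lowest level of both miR-126a-3p and miR-143-3p. The other arm, miR-126a-5p, overlapped between the ages (log2 difference -0.07, limma, adjusted p = 0.901). Of the mesenchymal and fibroblast list 4 of 6 names were measured and 0 of the 2 tested passed, with sums of 49.3 and 48.6 CPM at 2 months, compared with 24.02 and 85.0 CPM at 18 months. The red blood cell list (3 of 5 measured, 0 of 2 tested passed) summed to 1805 and 3382 against 1703 and 2827 CPM. The leukocyte list (5 of 5 measured, 0 of 4 tested passed) summed to 3142 and 3569 against 2771 and 2902 CPM, most of it miR-150-5p, and on the rescaled values the ages overlapped (2864 and 3348 against 3022 and 3052 rescaled CPM).

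Of the striated muscle list miR-133a-3p rose by the unadjusted test (104 and 55.0 CPM against 129 and 147 CPM, log2 difference 0.86, limma, adjusted p = 0.269), whereas miR-1a-3p, which shares its transcript, measured 89.8 and 95.4 against 62.2 and 83.3 CPM. The neuronal list (0 of 3 passed) and the oligodendrocyte list (0 of 2 passed) overlapped between the ages in their sums. The list of the choroid plexus and epithelium summed to 23819 and 41146 CPM at 2 months, compared with 46464 and 54760 CPM at 18 months, and 2 of its 4 names, miR-200b-3p and miR-141-3p, passed upwards by the unadjusted test (limma, log2 differences 0.79 and 0.98), as did 4.17% of all names. Its choroid plexus miRNA, miR-204-5p, overlapped between the ages (2100 and 2623 against 2256 and 2786 CPM, log2 difference 0.09). The part of these tissues in the differences of the members was not tested.

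**Figure D5:**
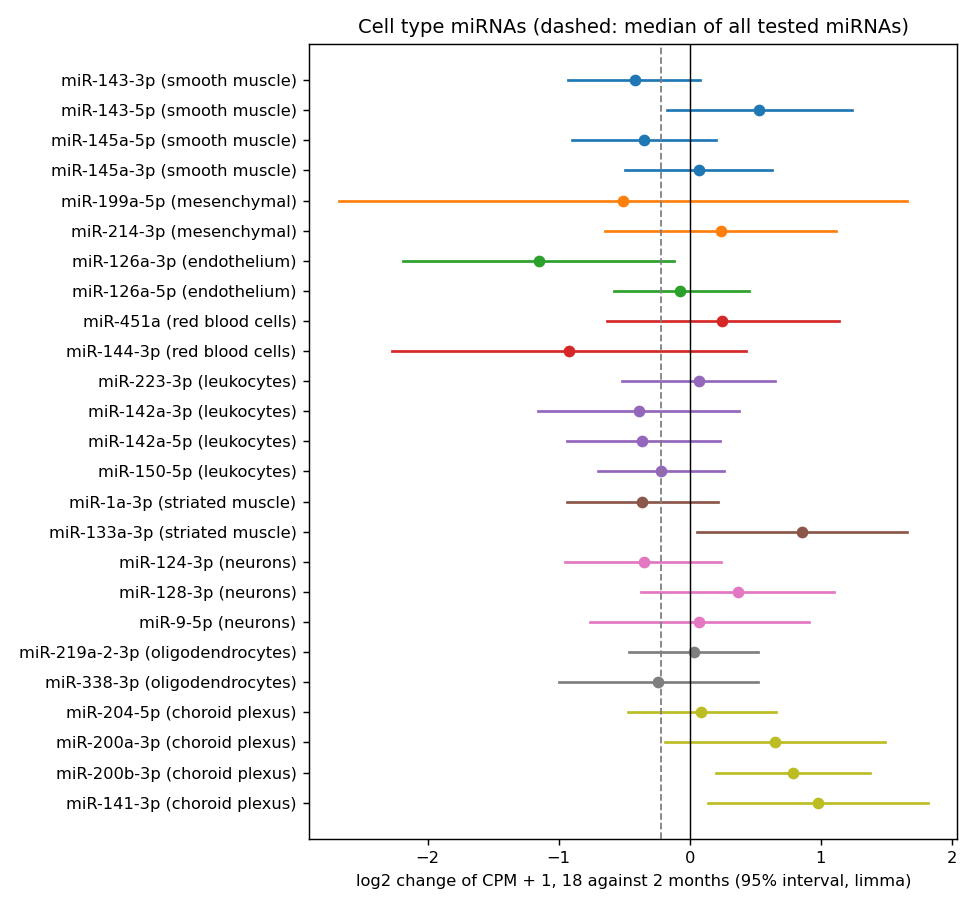
The log2 difference of CPM + 1 between 18 and 2 months with its 95% interval from limma for the members (top 4) and for the tested miRNAs of other cell types, with colors marking the lists and the dashed line the median of all 456 names (-0.22). The intervals of all 4 members include 0, and those of miR-126a-3p, miR-133a-3p, miR-200b-3p and miR-141-3p do not.

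As a description over only 4 libraries, the miRNA whose pattern was most like that of miR-143-3p was miR-532-5p (Pearson r = 0.999 of log2(CPM + 1); 447, 439, 345 and 389 CPM), followed by miR-125b-1-3p, miR-322-5p, miR-369-5p and miR-7a-5p. The pattern of miR-145a-5p was most like that of miR-671-3p (r = 0.999; 19.6, 22.4, 17.2 and 10.8 CPM), followed by miR-539-5p, miR-187-5p, miR-127-3p and miR-128-2-5p. The guides came from 1 locus but were not among each other's nearest patterns, with r = 0.46 between them. The passenger arms were closer to each other (r = 0.87) than each was to its own guide (r = -0.78 for miR-143 and -0.48 for miR-145a).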

How the data were processed

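R-sRNAs of 4 libraries (2 per age) were measured by Ago-RP-Seq. The authors trimmed the reads (Trim Galore, per the submitters' processing notes, version not given in the sources used here), dropped rare sequences, annotated the others by BLAST searches of mouse small RNA collections and deposited CPM for each sequence. A 6mer seed viability score per sequence, also deposited by the authors, was used as given. The authors' summed signal per sequence over all libraries was deposited too and not used. Dividing CPM by the worth of a single read returned whole reads for 100% of the nonzero values, none of which lay more than 0.0057 reads from a whole number. The depth was 10484940 and 11388999 reads for the younger and 10575081 and 9067007 reads for the older mice, so 3 reads equal 0.263 to 0.331 CPM. No per-sample column was left without a sample (0 columns).

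CPM was summed by miRNA name. Log2(CPM + 1) was modelled on age alone with limma 3.58.1 in R 4.3.3 (trend on intensity, two-sided), once over the 456 names averaging 10 CPM or more and once over the 14287 sequences averaging 1 CPM or more. Log2 differences of low miRNAs are understated on this scale. Adjustment followed Benjamini-Hochberg over all names or all sequences. Features were called at an unadjusted p below 0.05, as in the study's methods. For values such as arm shares, exact permutation tests over the libraries were run in scipy 1.17.1. Reads were set against the hairpins without gaps. A tail is up to 4 nucleotides after at least 15 matching ones. Added nucleotides that equal those of the hairpin cannot be told from templated ones. Hairpins of 366 of the 456 names gave the comparison for tails. Those of the members came from GENCODE M21 and those of the other names from RefSeq. The scripts were tested on simulated data. edgeR 4.0.16 and DESeq2 1.42.0 on the recovered reads were alternatives.

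The members and the lists of cell type miRNAs were chosen with earlier results of these data known. Named were the members, the listed miRNAs, the 5 most similar names for each guide and the 5 most abundant sequences of each member. Sequences that passed an unadjusted p of 0.05 were named after their values were seen. The sequences of the members are not printed here. Genome coordinates are from GRCm38. The build behind the authors' RNA lists is not given in the sources used here.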

Additional observations from a re-analysis of the deposited data

Results flagged for a closer look

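Reads that match the hairpins but carry none of the mature names lie outside the comparisons above, and no control samples exist for them. For the miR-143 hairpin 105 sequences together summed to 48.6 CPM on average (53.2 and 54.6 CPM at 2 months, 39.1 and 47.4 CPM at 18 months). This is 1.45% of the reads of the hairpin. The sum is spread over all these sequences, so it does not show how far each lay above the 0.263 to 0.331 CPM that 3 reads are worth. Of these sequences 85 had an internal mismatch. For the miR-145a hairpin 107 sequences together summed to 30.1 CPM on average (35.9 and 33.6 against 26.7 and 24.04 CPM), 1.19% of the reads of the hairpin. Of these, 86 had an internal mismatch. The sums of both were lower in both 18-month libraries, as were the guides and 41.4% of all names tested. These sums are on CPM and were not rescaled.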

How the results depend on the processing

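All 14 alternatives for miR-143-3p and for miR-145a-5p kept the direction and the side of the threshold. miR-143-5p passed the unadjusted threshold after rescaling by the median of ratios (0.73, limma, adjusted p = 0.340) and with DESeq2 (0.74, adjusted p = 0.324), and ranged from 0.26 to 0.80 when 1 library was left out. miR-145a-3p ranged from -0.006 to 0.14 when 1 library was left out. The count of member sequences went from 4 of 91 tested to 14 of 371 tested with no filter. At an adjusted p it was 0 of 91, where 6 of all 14287 sequences passed. It ranged from 2 to 7 when 1 library was left out (2 without replicate 2 and 7 without replicate 1 of the 18-month group). For the other settings the share called over all sequences was not counted, so these counts do not show a rise or fall particular to the members. Leaving out 1 library each, the difference in the log2 ratio of miR-143-3p to miR-145a-5p ranged from -0.40 to 0.25, that in mean seed viability from -0.40 to 0.32 points (0.0242 with sequences of 20 to 24 nucleotides), and that in the shifted share of miR-143-3p from -0.00936 to 0.586 points and of miR-145a-5p from 0.0770 to 0.361 points. The cause of these shifts was not tested. With the replicate block, miR-143-3p was at -0.42 (limma, adjusted p = 0.316) and the block changed no call of a member name, with 5 member sequences called. Same-numbered libraries of the ages cannot come from the same animals, since each brain was taken at a single age. The correlation of same-numbered deviations was 0.180 over 456 names. With 2 libraries per age it cannot decide whether same-numbered libraries were prepared together. With 2 libraries per age the single values cannot pass a threshold, and passenger arms rest on 158 to 435 reads per library. The filter of at least 100 CPM left no value for the passenger arms. Member counts under the other settings kept within 1.5 times of 4.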
